A study of Mus musculus with 12 samples.

Results

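Fibrillar collagen genes were followed in smooth muscle cells (SMCs) sorted from the mouse thoracic aorta. The 8 genes were chosen by name and family: *Col1a1* and *Col1a2* (type I), *Col3a1* (type III), *Col5a1*, *Col5a2*, and *Col5a3* (type V), *Col11a1* (type XI), and *Col27a1* (type XXVII). They are 8 of 52636 genes in the count table, and all 8 had enough counts to be tested. The question was how the expression of each chain differed after loss of TGF-β receptors from SMCs, in each of 2 aortic segments.

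Cells came from GFPiSMC mice, the controls, and from Tgfbr1/2iSMCKO mice, with 3 libraries from each of 2 segments (ascending aorta with arch, and descending thoracic aorta). Libraries of a genotype with the same number were taken as both segments of 1 animal, 3 per genotype, which the labels do not say in words. Both genotypes were C57BL/6J males with a tamoxifen-inducible Cre driven by *Myh11*, a gene of differentiated smooth muscle, and an mT/mG reporter that switches cells with active Cre to GFP. Tgfbr1/2iSMCKO mice also carried floxed *Tgfbr1* and *Tgfbr2*, and the controls had no floxed receptor alleles, so that mouse line and deletion cannot be told apart. Aortas were taken at 12 weeks of age and digested in the cold, and 9208 to 20000 viable GFP+ cells entered each of 12 RNA-seq libraries. Tamoxifen was given for 5 days, at 2 mg/d from 11 weeks of age or, in a subgroup of the study, at 1 mg/d from 4 weeks. The labels name both schedules for these libraries. The study places this profiling 1 week after receptor disruption, in mature aortas of 12-week-old mice, which is the schedule from 11 weeks. The *Myh11* Cre sits on the Y chromosome, which restricts the data to males, and it marks all *Myh11* lineage cells rather than aortic SMCs alone.

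Fibrillar collagens are the rope-like collagens of the ECM. Procollagen chains fold into a triple helix in the secretory pathway, are secreted, trimmed at their ends, assembled into fibrils, and cross-linked. In the aortic wall, types I and III make up most of the fibrils, whereas type V is a minor component that starts fibril assembly and limits fibril diameter. Type XI is best known from cartilage, and type XXVII from cartilage and developing tissues. TGF-β is a classic inducer of types I and III in mesenchymal cells.

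In GRCm38, the members lie on 7 chromosomes. *Col1a1* (ENSMUSG00000001506.10) is at chr11:94936224-94953042, *Col1a2* (ENSMUSG00000029661.16) at chr6:4504814-4541544, and *Col5a1* (ENSMUSG00000026837.15) at chr2:27886425-28039514, all on the plus strand. *Col5a3* (ENSMUSG00000004098.7) is at chr9:20770050-20815067 on the minus strand, and *Col11a1* (ENSMUSG00000027966.20) and *Col27a1* (ENSMUSG00000045672.15) are at chr3:114030540-114220718 and chr4:63214004-63334991 on the plus strand. *Col3a1* (ENSMUSG00000026043.18, chr1:45311538-45349706, plus strand) and *Col5a2* (ENSMUSG00000026042.16, chr1:45374321-45503282, minus strand) are neighbors that face each other tail to tail, 24614 bases apart.

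Promoters are shown for *Col3a1*, which kept the smallest share of its control level in Tgfbr1/2iSMCKO cells, for *Col1a2*, for *Col5a1*, which fell least among the called members, and for *Col27a1*, which was not called. Each is the 250 bases before the RefSeq start on GRCm38.p6, 5′ to 3′ on the gene's strand, with capitals for matches of any searched motif on either strand.
*Col3a1*, chr1:45311288-45311537, plus strand: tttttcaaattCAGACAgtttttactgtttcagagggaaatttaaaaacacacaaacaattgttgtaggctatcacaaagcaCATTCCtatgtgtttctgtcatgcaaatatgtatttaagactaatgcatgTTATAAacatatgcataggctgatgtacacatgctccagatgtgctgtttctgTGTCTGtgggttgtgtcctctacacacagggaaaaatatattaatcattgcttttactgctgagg
*Col1a2*, chr6:4505368-4505617, plus strand: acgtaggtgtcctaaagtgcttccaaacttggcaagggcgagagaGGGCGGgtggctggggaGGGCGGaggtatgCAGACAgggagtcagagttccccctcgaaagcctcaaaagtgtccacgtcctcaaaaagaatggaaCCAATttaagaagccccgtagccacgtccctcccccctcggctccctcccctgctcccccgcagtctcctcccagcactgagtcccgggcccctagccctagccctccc
*Col5a1*, chr2:27886175-27886424, plus strand: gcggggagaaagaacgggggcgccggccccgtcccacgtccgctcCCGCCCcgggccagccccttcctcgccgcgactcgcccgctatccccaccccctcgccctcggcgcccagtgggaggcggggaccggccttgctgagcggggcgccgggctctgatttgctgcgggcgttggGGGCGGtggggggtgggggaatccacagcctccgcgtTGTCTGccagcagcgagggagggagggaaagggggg
*Col27a1*, chr4:63215162-63215411, plus strand: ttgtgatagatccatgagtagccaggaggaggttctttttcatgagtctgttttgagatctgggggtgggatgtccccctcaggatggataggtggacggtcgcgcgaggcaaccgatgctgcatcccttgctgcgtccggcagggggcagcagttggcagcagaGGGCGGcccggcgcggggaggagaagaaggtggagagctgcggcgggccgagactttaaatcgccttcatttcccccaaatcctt

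Motifs were searched on both strands. For Smad proteins, which carry TGF-β signals, the short element CAGACA and the palindrome known as the Smad box, GTCTAGAC, were used. For general promoter elements, the letters were CCAAT for the box of that name, TATAA for a TATA-like box, and GGGCGG for the GC box. TEAD factors were represented by GGAATG, and the AP-1 family was represented by TGANTCA. RefSeq promoters were matched for 6 of 8 members, the others being *Col1a1* and *Col5a2*. CAGACA or its complement was in the windows of *Col1a2*, *Col3a1*, and *Col5a1* and not in those of *Col5a3*, *Col11a1*, and *Col27a1*, against 17.1% of 32851 promoters of the same length. The window of *Col3a1* held it at bases −239 to −234 and again at −65 to −60, counted back from the start. Its TATAA and its complement overlap in 1 run of letters, and TATAA was in 22.8% of all promoters. The same window was the only 1 of the 6 with GGAATG or its complement, which 12.6% of all promoters held. CCAAT was in the windows of *Col1a2*, *Col5a3*, and *Col11a1* (33.8% of all promoters), the GC box was in every window but that of *Col3a1* (32.7%), and neither AP-1 (6.75%) nor the Smad box (0.167%) was found. The windows ranged in base composition, with 35.2% G and C in *Col3a1* and 76.4% in *Col5a1* around a median of 52.4% over all promoters. For *Col1a2* and *Col27a1*, the RefSeq start lies 804 and 1408 bases inside the gene as GENCODE draws it.

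The libraries held 20467027 to 31392396 counts. SMC markers were abundant in every library, with a summed level of 8 genes (*Acta2*, *Myh11*, *Tagln*, *Cnn1*, *Smtn*, *Lmod1*, *Des*, *Myocd*) of 39835 to 47855 CPM (counts per 1000000 of the TMM-scaled library total) in GFPiSMC and 33927 to 42796 in Tgfbr1/2iSMCKO cells, and none of the 8 passed the test between genotypes (edgeR; 2 had an unadjusted p under 0.05). *Tgfbr1* was at 196 to 292 CPM in GFPiSMC and 198 to 295 in Tgfbr1/2iSMCKO libraries, and *Tgfbr2* at 88.9 to 128 and 68.2 to 102. Neither passed the test (log2 fold changes 0.10 and −0.26, edgeR, adjusted p = 0.79 and 0.2335). Counts over a whole gene do not separate transcripts with and without a floxed exon, so the deletion itself is not checked by these levels.

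In GFPiSMC cells, the levels of the 8 genes spanned more than 3 orders of magnitude. On the scale of CPM per kilobase of transcript, which allows genes of different length to be compared, *Col1a2* was at 257 ± 17.8 and *Col3a1* at 235 ± 23.0 in the ascending/arch segment (mean ± SD, n = 3 here and for all group values). *Col1a1* followed at 87.9 ± 13.1, *Col5a2* at 41.1 ± 2.32, and *Col5a1* at 11.2 ± 1.63. *Col27a1* (1.08 ± 0.0384), *Col11a1* (0.201 ± 0.0170), and *Col5a3* (0.118 ± 0.0850) were scarce. The order was the same in all 4 groups. Levels of *Col1a2* and *Col3a1* overlapped between libraries in both GFPiSMC groups, and those of *Col11a1* and *Col5a3* overlapped in the ascending/arch segment of both genotypes. In Tgfbr1/2iSMCKO cells, *Col1a2* stood above *Col3a1* in every library, at 78.3 ± 5.30 against 48.5 ± 1.45 in the ascending/arch segment and 67.9 ± 4.63 against 41.2 ± 1.52 in the descending segment. In the latter, *Col3a1* overlapped with *Col1a1* (31.7 ± 10.8), and *Col27a1* (0.580 ± 0.170) with *Col11a1* (0.263 ± 0.148).

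Together, the 8 genes took 0.298% to 0.363% of all counts in the 6 GFPiSMC libraries and 0.0898% to 0.115% in the 6 Tgfbr1/2iSMCKO libraries. By test, 5 of 8 members were lower in Tgfbr1/2iSMCKO cells over the 12 libraries (edgeR, adjusted p under 0.05), against a background of 3.23% of 22320 genes tested. These were *Col1a1*, *Col1a2*, *Col3a1*, *Col5a1*, and *Col5a2*, and 4 of them also passed a 2-fold threshold (background 1.64%). No member was higher (background 1.8%), also at an unadjusted p under 0.05 or with DESeq2. The median log2 fold change of the 8 members was −1.20, and that of all genes tested was 0.04. In each of the 5, the highest Tgfbr1/2iSMCKO library was below the lowest GFPiSMC library, which held for 2.89% of the genes tested. In bulk RNA, fewer cells that express a gene and less RNA per cell cannot be told apart. Of all genes tested, 721 were lower and 402 higher; with total counts in place of TMM scaling, these numbers were 505 and 699, the median of all genes was 0.16, and the 5 members were called as before.

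**Figure D1:**
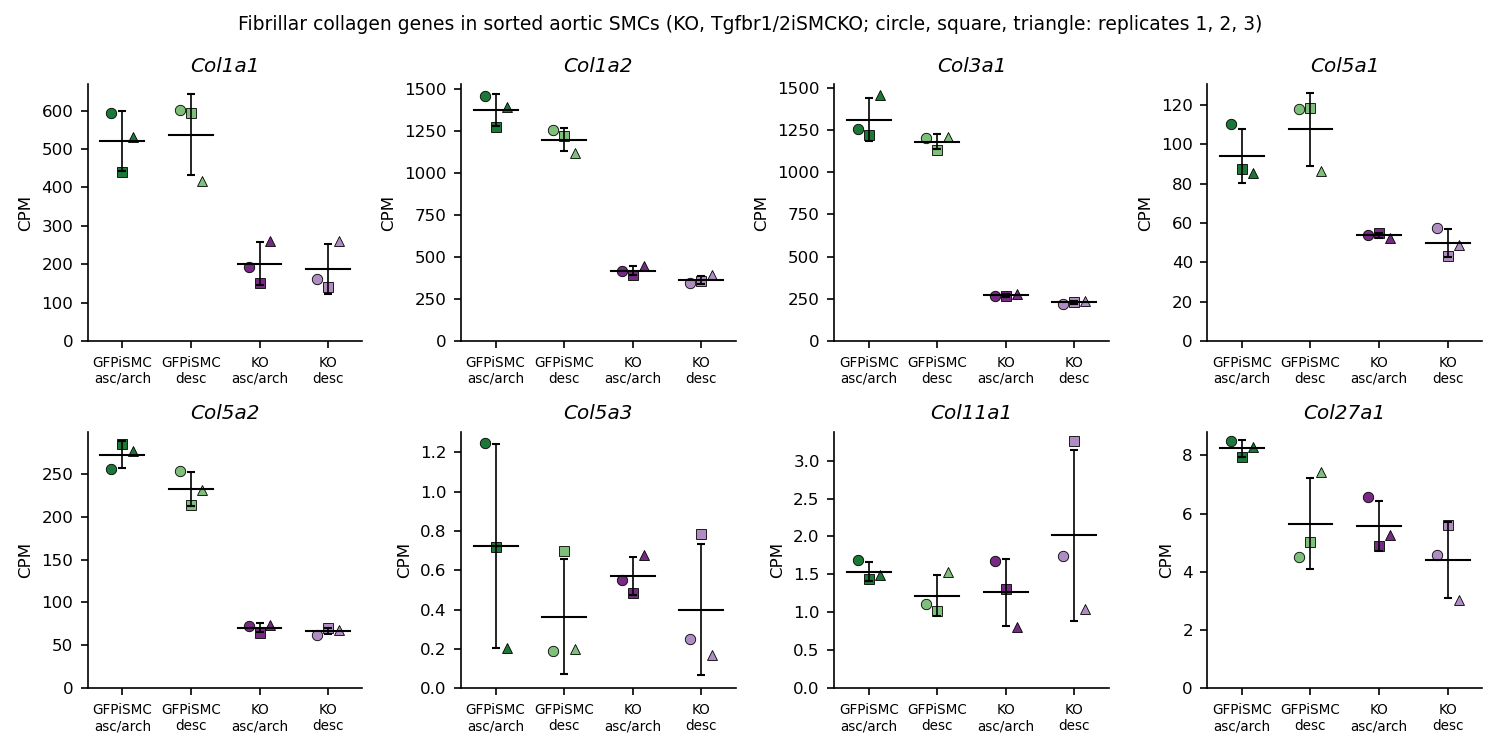
CPM (linear axes from 0) of each fibrillar collagen gene in the 12 libraries, by genotype and segment (KO, Tgfbr1/2iSMCKO). Symbols are libraries, lines are means, and bars are SDs of 3 animals; for the genes of types I and III, *Col5a1*, and *Col5a2* all 6 KO libraries lie below all 6 GFPiSMC libraries, whereas *Col5a3*, *Col11a1*, and *Col27a1* overlap.

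The gene of type III collagen kept the smallest share of its control level. *Col3a1*, whose product forms homotrimers in distensible tissues, was at 1253, 1219, and 1457 CPM in the ascending/arch and 1205, 1130, and 1206 CPM in the descending segment of GFPiSMC mice. In Tgfbr1/2iSMCKO mice it was at 264, 267, and 279 CPM and at 220, 231, and 237 CPM. The groups were far apart, with 4.05-fold between the lowest control and the highest Tgfbr1/2iSMCKO library, and replicates within a group were close (SD 2.98% to 9.79% of the mean). *Col3a1* fell by 2.32 on the log2 scale (SE 0.08, edgeR, adjusted p = 1.505e-09), which left 20.1% of the control mean.

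The genes of both type I chains, which combine in heterotrimers, fell with smaller estimates. *Col1a2*, which encodes the α2 chain, was at 1458, 1270, and 1390 CPM in the ascending/arch and 1256, 1216, and 1120 CPM in the descending segment of GFPiSMC mice. The corresponding levels in Tgfbr1/2iSMCKO mice were 418, 391, and 448 CPM and 344, 355, and 391 CPM. Replicates were again close, no library overlapped between genotypes, and the gene fell by 1.72 on the log2 scale (SE 0.08, edgeR, adjusted p = 2.928e-08), to 30.4% of the control mean.

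*Col1a1*, for the α1 chain, varied more between animals. Its levels were 594, 439, and 531 CPM in the ascending/arch and 602, 593, and 416 CPM in the descending segment of GFPiSMC mice. In Tgfbr1/2iSMCKO mice they were 192, 151, and 261 CPM and 162, 140, and 261 CPM. Replicate 3 of Tgfbr1/2iSMCKO was the highest of its genotype in both segments, and the SD within the Tgfbr1/2iSMCKO groups was 27.6% and 34.3% of the mean. *Col1a1* fell by 1.45 on the log2 scale (SE 0.18, edgeR, adjusted p = 0.0002888), to 36.7% of the control mean; without that animal, the log2 fold change was −1.73.

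Type V collagen was uneven. *Col5a2* (α2 chain) was at 255, 285, and 277 CPM in the ascending/arch and 253, 214, and 231 CPM in the descending segment of GFPiSMC mice. In Tgfbr1/2iSMCKO mice it was at 72.8, 64.3, and 73.7 CPM and at 62.2, 69.8, and 67.8 CPM. The highest of these was 2.90-fold under the lowest control, and *Col5a2* fell by 1.88 on the log2 scale (SE 0.09, edgeR, adjusted p = 6.141e-08), to 27.1% of the control mean. *Col5a1*, for the α1 chain that most type V molecules need, was at 110, 87.5, and 85.4 CPM and at 118, 119, and 86.4 CPM in GFPiSMC mice. In Tgfbr1/2iSMCKO mice its levels were 53.8, 55.2, and 52.5 CPM and 57.3, 43.1, and 48.8 CPM. The genotypes were still separate, by 1.49-fold at the closest libraries. *Col5a1* fell by 0.96 on the log2 scale (SE 0.13, edgeR, adjusted p = 0.0005714), just short of the 2-fold threshold, and kept 51.2% of the control mean.

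The scarce members did not pass the test. *Col27a1* was at 8.51, 7.93, and 8.30 CPM in the ascending/arch and 4.53, 5.01, and 7.43 CPM in the descending segment of GFPiSMC mice. In Tgfbr1/2iSMCKO mice it was at 6.56, 4.90, and 5.28 CPM and at 4.60, 5.61, and 3.04 CPM, from 90 to 232 counts in each of the 12 libraries. Over both segments, the libraries of the genotypes overlapped, as they did in the descending segment. In the ascending/arch segment, every Tgfbr1/2iSMCKO library was below every control, without a call (log2 fold change −0.56, edgeR, adjusted p = 0.5457). The share of all genes separate within a segment was not counted. Over the 12 libraries, the log2 fold change was −0.46 (SE 0.21, 95% interval −0.91 to −0.01, edgeR, adjusted p = 0.2974).

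*Col11a1* had 25 to 79 counts in a library, or 1.02 to 1.69 CPM in GFPiSMC and 0.805 to 3.26 CPM in Tgfbr1/2iSMCKO cells, with the highest value in the descending segment of replicate 2. Its log2 fold change was 0.22 (SE 0.35, 95% interval −0.53 to 0.97, edgeR, adjusted p = 0.8609). *Col5a3* had 5 to 34 counts, or 0.192 to 1.25 CPM in GFPiSMC and 0.169 to 0.783 CPM in Tgfbr1/2iSMCKO cells. Its log2 fold change was −0.13 (SE 0.54, 95% interval −1.29 to 1.04, edgeR, adjusted p = 0.9559). At this depth, a change of 2-fold in either direction was within the interval of *Col5a3*, and neither sign can be given for *Col5a3* or *Col11a1*, since each turned with 1 animal left out. The rest of the family was as scarce: *Col11a2* (−0.38, adjusted p = 0.7365) and *Col24a1* (−0.37, adjusted p = 0.8034) did not pass the edgeR test, and *Col2a1*, the main cartilage collagen, had 0 to 14 counts and was not tested.

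Both segments of an animal entered the comparison over 12 libraries. With counts summed per animal (3 against 3), the same 5 members were lower, against a background of 1.25% of 24275 genes. The log2 fold changes were then −2.30 for *Col3a1* (edgeR, adjusted p = 6.687e-05), −1.86 for *Col5a2* (0.0002826), −1.70 for *Col1a2* (0.0003732), −1.42 for *Col1a1* (0.02255), and −0.96 for *Col5a1* (0.0246). The direction was seen in 3 of 3 animals for each of them. A permutation test of any single gene over these animals cannot give a p below 0.1.

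Each segment was also compared alone. In the ascending/arch segment, 4 members were lower and all 4 by more than 2-fold (background 1.01% and 0.811%). The log2 fold changes were −2.28 ± 0.12 (SE) for *Col3a1*, −1.95 ± 0.14 for *Col5a2*, −1.71 ± 0.12 for *Col1a2*, and −1.37 ± 0.26 for *Col1a1* (edgeR, adjusted p from 7.133e-07 to 0.0225). *Col5a1* missed the threshold, at −0.81 ± 0.18 (edgeR, adjusted p = 0.0533). In the descending segment, 5 members were lower, all by more than 2-fold (background 1.21% and 0.995%). The values were −2.36 ± 0.12 for *Col3a1*, −1.80 ± 0.14 for *Col5a2*, −1.72 ± 0.12 for *Col1a2*, −1.52 ± 0.27 for *Col1a1*, and −1.12 ± 0.18 for *Col5a1* (adjusted p from 6.347e-07 to 0.01096).

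With fewer samples, *Col1a1* and *Col5a1* lost some calls within a segment, while their fold changes stayed close. In the ascending/arch segment, *Col1a1* lost its call without any 1 of GFPiSMC replicates 1, 2, and 3 or Tgfbr1/2iSMCKO replicates 1 and 2 (adjusted p = 0.07271 to 0.1654, log2 fold change −1.48 to −1.20). In the descending segment it lost it without GFPiSMC replicate 1, GFPiSMC replicate 2, or Tgfbr1/2iSMCKO replicate 1 (0.07452 to 0.1179, −1.44 to −1.42), and *Col5a1* without GFPiSMC replicate 1, GFPiSMC replicate 2, or Tgfbr1/2iSMCKO replicate 2 (0.05662 to 0.07382, −1.06 to −1.02). The other called members kept their calls in both segments whichever animal was left out.

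**Figure D2:**
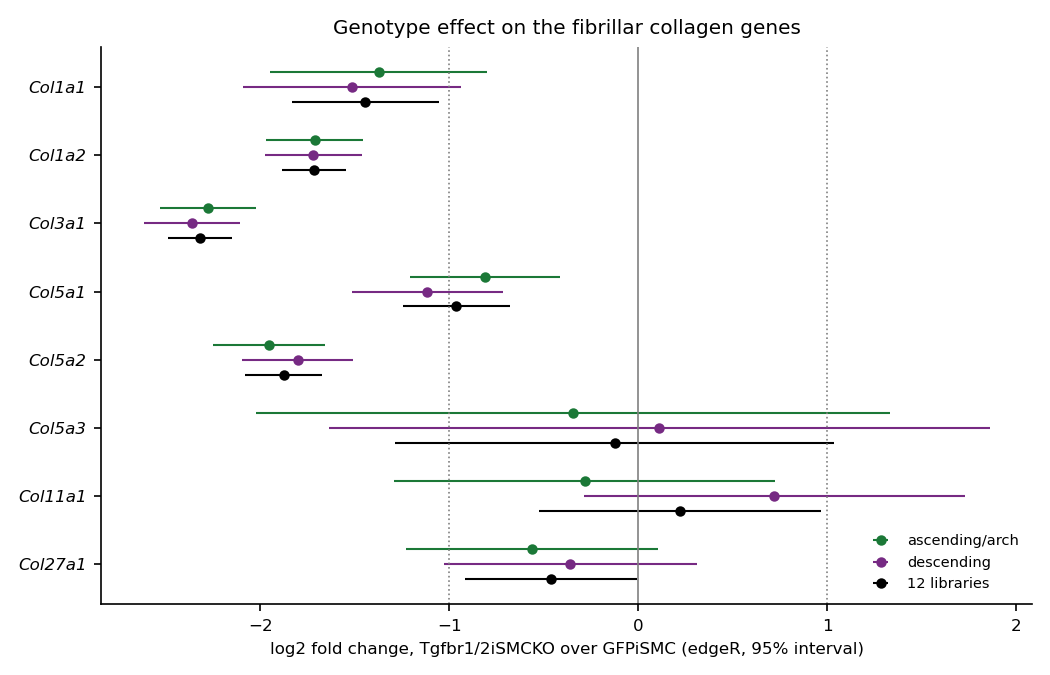
Log2 fold change of each fibrillar collagen gene (Tgfbr1/2iSMCKO over GFPiSMC, edgeR) in the ascending/arch segment, in the descending segment, and over all 12 libraries. Points are estimates, bars are 95% intervals, and dotted lines mark a 2-fold change. *Col3a1* is farthest to the left (−2.28, −2.36, and −2.32). The intervals of *Col5a3* and *Col11a1* reach across 0, as do those of *Col27a1* within each segment but not over all 12 libraries.

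The genotype effect was not shown to differ between segments for any member. The difference of the effects (descending minus ascending/arch) lay between −0.31 and 0.15 on the log2 scale for the 5 called members and between 0.20 and 1.00 for the scarce ones. None of the 8 had an unadjusted p under 0.05 in edgeR or DESeq2, and the adjusted p in edgeR was 1 for each. Over all genes tested, 0 were called and 2.95% had an unadjusted p under 0.05. The intervals show what these libraries could resolve: −0.43 to 0.26 for *Col3a1*, −0.36 to 0.35 for *Col1a2*, −0.94 to 0.65 for *Col1a1*, and −0.42 to 2.43 for *Col11a1*.

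Nor did any member pass a test between the segments within a genotype (background 0.376% in GFPiSMC and 0.112% in Tgfbr1/2iSMCKO, either direction). At an unadjusted p under 0.05, 0 of 8 were found in edgeR or DESeq2. The share of all genes in edgeR was 5.98% in GFPiSMC and 3.68% in Tgfbr1/2iSMCKO cells, so that 0 of 8 says little of the members. In GFPiSMC cells the log2 differences (descending over ascending/arch) were −0.20 for *Col1a2*, −0.15 for *Col3a1*, −0.23 for *Col5a2*, 0.04 for *Col1a1*, and 0.19 for *Col5a1*. In Tgfbr1/2iSMCKO cells the differences of these 5 genes lay between −0.24 and −0.08. *Col3a1* had the lowest, at −0.24 (95% interval −0.48 to 0.01, edgeR, adjusted p = 1). With the animal as a block, 1 of the 8 members had an unadjusted p under 0.05 in that comparison (0.03282, edgeR, adjusted p = 1). For that fit the share of all genes was not counted, so this single value has no background. Within the 6 same-numbered pairs of libraries, *Col1a2* and *Col3a1* were lower in the descending library in 6, as were 3.4% of all genes tested, *Col5a2*, *Col5a3*, and *Col27a1* in 5, *Col1a1* in 4, and *Col5a1* and *Col11a1* in 2. The share of all genes was counted for 6 of 6 pairs only, so the smaller counts have no background. All pair counts were made after the values were seen and were not tested.

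The share of each gene in the RNA of the family is given as a description, with no test. Of the summed CPM per kilobase of the 8 genes, *Col3a1* made up 37.0% ± 2.26 (SD, n = 6 libraries) in GFPiSMC and 26.8% ± 1.80 in Tgfbr1/2iSMCKO cells. *Col1a2* went from 39.7% ± 1.27 to 43.5% ± 1.28, *Col1a1* from 14.8% ± 2.02 to 19.3% ± 3.71, and *Col5a1* from 2.00% ± 0.342 to 3.70% ± 0.529. *Col5a2* was at 6.31% ± 0.594 and 6.18% ± 0.517.

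Ratios between chains within a library do not depend on how libraries are scaled, and 4 were compared over 3 animals of each genotype. *Col3a1* to *Col1a1* was 2.53 in GFPiSMC and 1.41 in Tgfbr1/2iSMCKO mice, a log2 difference of −0.84. *Col5a1* to *Col5a2*, the chains that combine in type V molecules, was 0.314 and 0.595, a difference of 0.92. All type V genes over types I and III gave 0.0908 and 0.111, a difference of 0.28. In these 3 ratios the animals of the genotypes did not overlap, and each exact two-sided permutation test gave p = 0.1, the smallest that 3 against 3 can give (0.1333 adjusted over the 4 ratios). Single libraries did overlap for type V over types I and III. That ratio was 0.1008 in the ascending/arch library of GFPiSMC replicate 2 and 0.09826 and 0.1006 in both segments of Tgfbr1/2iSMCKO replicate 3. *Col1a1* to *Col1a2* was 0.369 and 0.436, with overlapping animals (log2 difference 0.24, exact permutation p = 0.3). In single libraries, that ratio was highest in both segments of Tgfbr1/2iSMCKO replicate 3 (0.526 and 0.601), and every library had less *Col1a1* than *Col1a2* per kilobase.

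**Figure D3:**
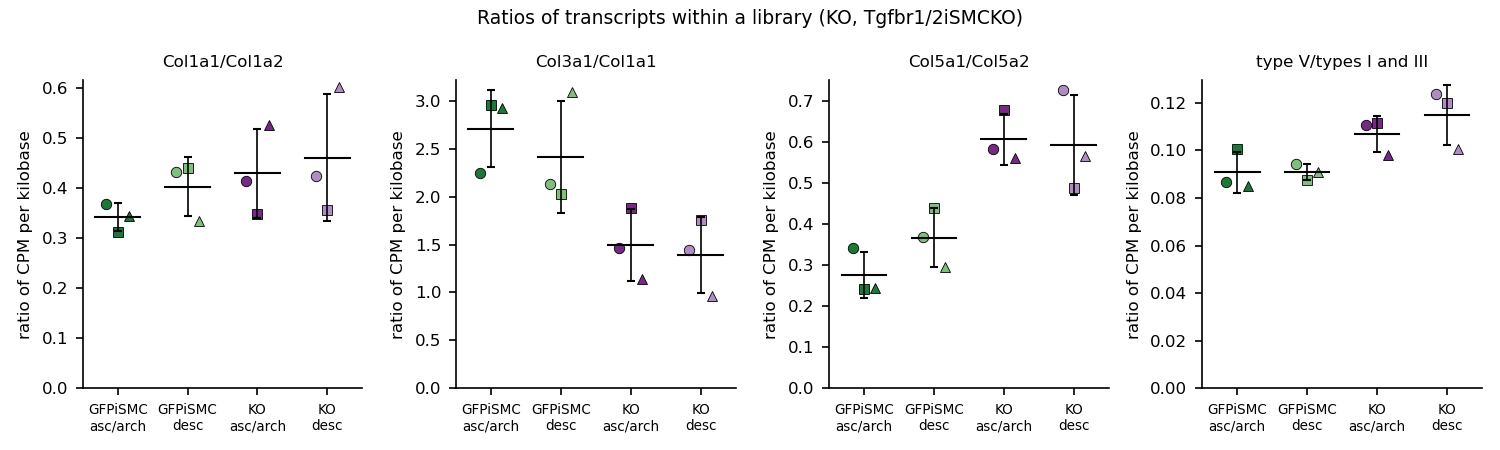
Ratios of CPM per kilobase between fibrillar collagen genes in each library (linear axes from 0), by genotype and segment (KO, Tgfbr1/2iSMCKO). Symbols are replicates 1 (circle), 2 (square), and 3 (triangle), with means and SDs; *Col3a1* over *Col1a1* is lower in KO than in GFPiSMC animals (1.41 against 2.53) and *Col5a1* over *Col5a2* is higher (0.595 against 0.314).

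The chains also differed in how they varied between animals. After the 4 group means were removed, the log2 CPM of *Col1a1* and *Col1a2* correlated with r = 0.922 over the 12 libraries, whereas the other 9 pairs of the 5 abundant members gave r between −0.451 and 0.397. *Col1a1* spread more than *Col1a2*: in Tgfbr1/2iSMCKO replicate 3 it was above its group mean by 0.41 and 0.53 on the log2 scale, and *Col1a2* by 0.10 and 0.11. With the group means left in, all pairs had r of 0.908 to 0.995, since all 5 genes separate the genotypes. These correlations describe 12 libraries from 6 animals that share library preparation and depth.

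Over the 12 libraries, the genes with the most similar profile included other members for *Col1a2*, *Col3a1*, and *Col5a2*. The group means were left in, so that a shared difference between genotypes by itself gives a high r. Among 9209 well-expressed genes (mean log2 CPM above 3), *Col1a2* was closest to *Col3a1*, *Fstl1*, *Bgn*, *Col5a2*, and *Mfap4* (r = 0.991 to 0.995), and *Col3a1* to *Col1a2*, *Col5a2*, *Mylk4*, *Pmepa1*, and *Lox* (0.991 to 0.995). *Col5a2* was closest to *Lox*, *Col3a1*, *Col1a2*, *Mylk4*, and *Pmepa1* (0.990 to 0.996). The lists of the other chains held no member: *Sulf1*, *Prss57*, *Ltbp3*, *Creb3l2*, and *Pkd1* for *Col1a1* (0.976 to 0.987), and *Hbegf*, *Col18a1*, *Serpine2*, *Nuak1*, and *Sparc* for *Col5a1* (0.969 to 0.987). With the group means removed, no list held a member. The closest gene to *Col1a1* was then *Plod3*, a lysyl hydroxylase (r = 0.981), and the closest were *Ltbr* to *Col1a2* (0.951), *Ttc30b* to *Col5a1* (0.957), and *Zfp354b* to *Col5a2* (0.875).

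Fibroblasts of the adventitia also make fibrillar collagens, and their markers were therefore read beside the members. The summed level of 10 fibroblast markers was 63.4 to 175 CPM in GFPiSMC and 23.9 to 254 CPM in Tgfbr1/2iSMCKO libraries. In both genotypes it was higher in every ascending/arch library (126 to 175 and 91.0 to 254 CPM) than in every descending library (63.4 to 76.7 and 23.9 to 57.2 CPM). The summed level of the 8 collagen genes was 3068 to 3750 CPM in GFPiSMC and 848 to 1121 CPM in Tgfbr1/2iSMCKO libraries. In the ascending/arch segment, 2 Tgfbr1/2iSMCKO libraries had more fibroblast marker RNA than any control and less fibrillar collagen RNA than every control. The third, at 91.0 CPM, was below every ascending/arch control in fibroblast marker RNA, and all 3 Tgfbr1/2iSMCKO descending libraries (23.9 to 57.2 CPM) were below all 3 of GFPiSMC (63.4 to 76.7 CPM). The part of these marker levels in the collagen levels was not tested.

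Of 9 fibroblast markers tested, *Serpinf1* was lower in Tgfbr1/2iSMCKO cells (log2 fold change −1.58, edgeR, adjusted p = 0.00646) and the rest did not pass. *Pdgfra*, a defining receptor, was at 7.08 to 15.7 CPM in GFPiSMC and 7.67 to 21.7 CPM in Tgfbr1/2iSMCKO libraries, while *Clec3b*, the marker not tested, was at 0 in 4 of the 12 libraries and *Pi16*, *Ly6a*, and *Dpt* were at 0 in 2, 3, and 1. Endothelial markers had a summed level of 66.9 to 100 CPM and 54.4 to 104 CPM in the respective genotypes. Most of it was *Pecam1* (median 80.0 and 75.5 CPM). *Cdh5*, *Vwf*, *Kdr*, *Tie1*, and *Emcn* had higher medians in Tgfbr1/2iSMCKO libraries, and the median log2 fold change of the list was 0.95. Of these genes, *Cdh5* alone passed the test as higher in Tgfbr1/2iSMCKO cells (2.97, edgeR, adjusted p = 0.02504). Macrophage markers summed to 6.52 to 19.2 CPM in GFPiSMC and 11.0 to 22.04 CPM in Tgfbr1/2iSMCKO libraries, and the adipocyte, Schwann cell, and mesothelial lists stayed under 5 CPM in each of the 12 libraries. The part of *Serpinf1*- or *Cdh5*-expressing cells in the collagen levels was not tested.

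**Figure D4:**
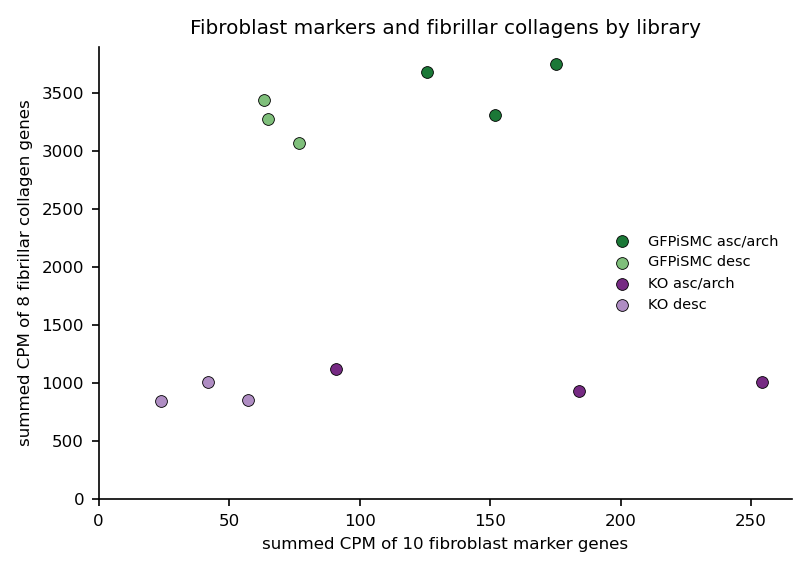
Summed CPM of the 8 fibrillar collagen genes (vertical axis) against summed CPM of 10 fibroblast marker genes (horizontal axis), both linear from 0, with 1 point for each of the 12 libraries (KO, Tgfbr1/2iSMCKO). The KO libraries lie at 848 to 1121 CPM of collagen at fibroblast marker levels from 23.9 to 254 CPM, and the GFPiSMC libraries at 3068 to 3750 CPM at marker levels from 63.4 to 175 CPM.

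Of the listed genes that act on or with fibrillar collagens, some were lower in Tgfbr1/2iSMCKO cells and none passed the test as higher, beside 3.23% lower and 1.8% higher among all genes tested. Among 13 genes for hydroxylation and folding in the secretory pathway, 4 were lower over the 12 libraries (median log2 fold change −0.57). *Plod2*, whose product hydroxylates lysines of the telopeptides that form cross-links, fell by 1.88 (SE 0.16, edgeR, adjusted p = 7.316e-06). *Ppib*, a prolyl isomerase of the complex that modifies prolines, fell by 0.57 (SE 0.09, adjusted p = 0.001849), and *P4ha1*, a catalytic subunit of prolyl 4-hydroxylase, and *Crtap*, of the same complex as *Ppib*, were the others, at −1.26 and −0.58. Of these 4, *Plod2* alone was also called with counts summed per animal. *Serpinh1*, the collagen chaperone, was at −0.67 (95% interval −1.48 to 0.14) and did not pass.

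Of 7 procollagen processing genes, 1 was lower (median −0.41, background 3.23% here and for the lists that follow), and a single call says nothing of a list. *Adamts2*, an N-proteinase of types I and III, fell by 1.17 (SE 0.18, edgeR, adjusted p = 0.001392), and *Bmp1*, the C-proteinase, was at −0.58 (adjusted p = 0.253). Of 5 cross-linking enzymes, *Lox* alone passed (median −0.30). It fell by 2.77 (SE 0.12), a larger estimate than that of any member, while *Loxl1* was at −0.38 (adjusted p = 0.2878).

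Of 7 fibril-associated genes, 3 were lower (median −0.82). *Bgn*, a small proteoglycan, fell by 1.81 (SE 0.09) and *Fn1*, fibronectin, by 1.70 (SE 0.36, edgeR, adjusted p = 0.01369), and *Col14a1*, a collagen on the surface of fibrils, was at −0.82. *Dcn* and *Lum*, which are also in the fibroblast list, were at −0.12 and −0.21 and did not pass. Of 8 receptors, *Itgb1*, the β chain of the collagen-binding integrins, fell by 0.48 (SE 0.07, adjusted p = 0.001499), and *Itga1* was at −0.27 (adjusted p = 0.07326), with a list median of −0.32. Of 5 proteinases that degrade fibrils, 3 were tested, and *Ctsk* fell by 1.44 (SE 0.19, adjusted p = 0.0004566), while *Mmp2* was at −0.78 (adjusted p = 0.2644). With counts summed per animal, *Plod2*, *Adamts2*, *Lox*, *Bgn*, *Fn1*, and *Ctsk* kept their calls and *Ppib*, *P4ha1*, *Crtap*, *Col14a1*, and *Itgb1* did not.

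**Figure D5:**
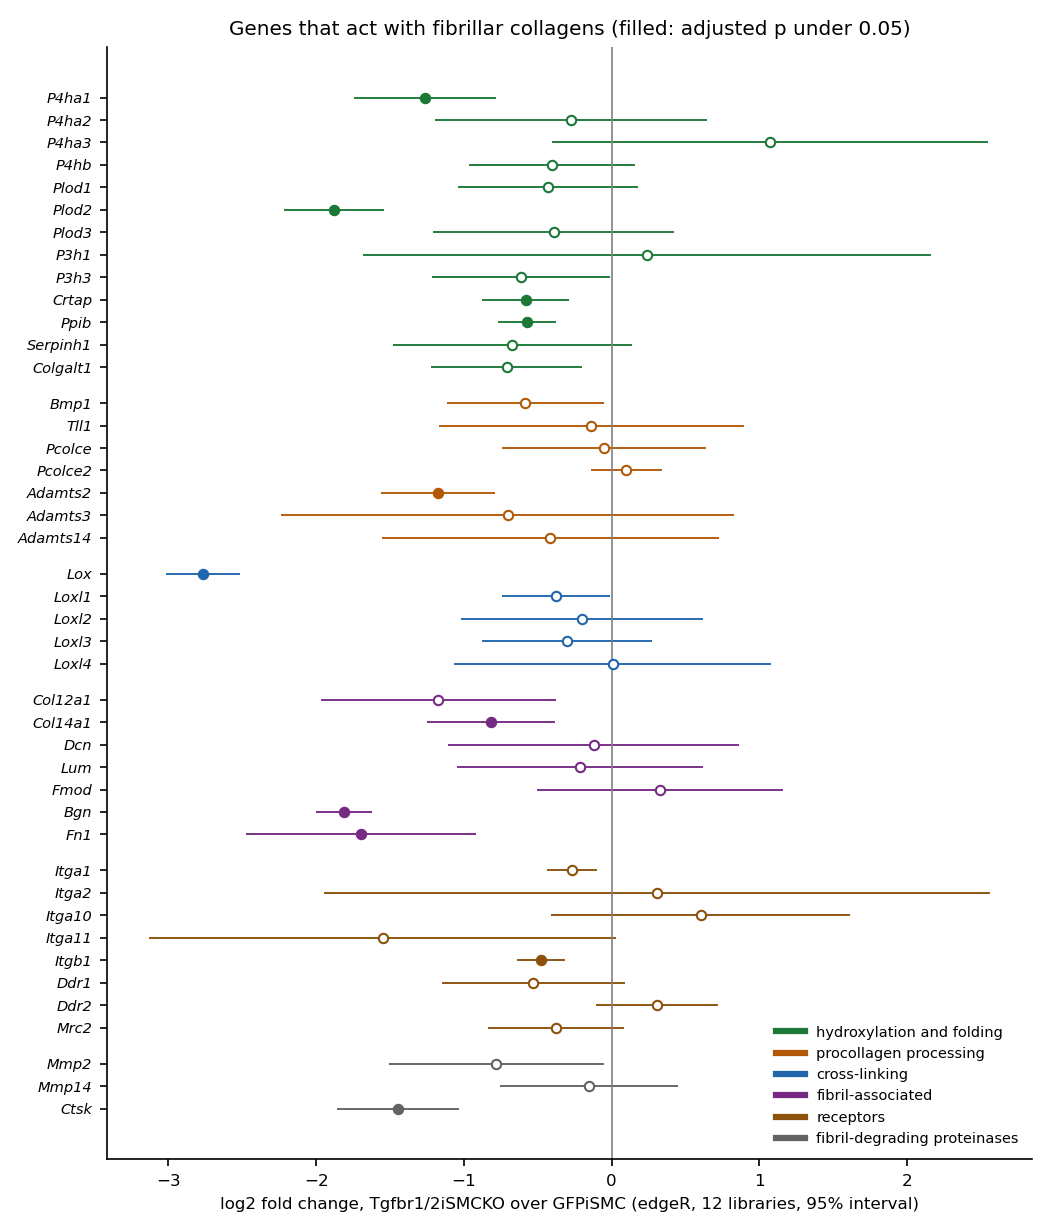
Log2 fold change (Tgfbr1/2iSMCKO over GFPiSMC, edgeR, 12 libraries) of genes that act with fibrillar collagens, colored by role, with 95% intervals. Filled points had an adjusted p under 0.05; all of these lie to the left of 0, with *Lox* at −2.77, *Plod2* at −1.88, and *Bgn* at −1.81.

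Among the other, non-fibrillar collagen genes, 30 of 33 were tested. In Tgfbr1/2iSMCKO cells 10 of them were lower, 5 by more than 2-fold, and 0 higher (background 3.23%, 1.64%, and 1.8%), with a median log2 fold change of −0.56 beside −1.20 for the fibrillar members and 0.04 for all genes. These medians do not rank single genes. In the ascending/arch segment, *Col15a1* was at −6.63 (edgeR, adjusted p = 0.0002235), a larger fall than that of any member.

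Of 14 distinct genes that were the nearest tested protein-coding ones on either side of a member, 1 passed the test, beside 5.03% of all genes in either direction. This was *Olfm2*, 23701 bases from *Col5a3*, a member that did not pass (log2 fold change of *Olfm2* −1.93, SE 0.52, edgeR, adjusted p = 0.04913). *Gulp1* and *Wdr75*, on either side of the *Col3a1* and *Col5a2* pair, were at 0.41 and −0.10 (edgeR, adjusted p = 0.1389 and 0.7843). Within the genes, *Gm47302*, an annotated miRNA, shares 141 exon bases with *Col3a1* and had at most 114 counts in a library. On the opposite strand of *Col5a1*, 2810430I11Rik and *Gm13372* share 99 and 113 exon bases and had at most 116 and 18 counts. Reads of *Gm47302* and *Col3a1*, which lie on the same strand, cannot be told apart in the shared bases. The sources used here do not state whether strand was used in counting, so that the same holds for *Col5a1* and its opposite-strand genes.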

How the data were processed

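The deposited values are gene counts for 52636 genes in 12 libraries, which the authors made with StringTie after alignment with HISAT2 to GRCm38 and GENCODE M15 gene models; they are not normalized. Libraries were prepared with a low-input kit. Values of 2 (32279) outnumber values of 1 (22574). Symbols, coordinates, and transcript lengths came from GENCODE M21 (52489 genes matched), promoters from RefSeq.

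Genotypes were compared with edgeR 4.0.16 in R 4.3.3 (TMM factors, filterByExpr on the 4 groups, quasi-likelihood test with segment as a term, or with 4 group means for effects within segments and their difference), with Benjamini-Hochberg adjustment over 22320 genes. A call is an adjusted p under 0.05; a change of more than 2-fold, as in the study, is given separately. Each SE was derived from the fold change and its F statistic. CPM use TMM-scaled totals; CPM per kilobase use the principal transcript. Ratios were tested with exact permutation in scipy 1.17.1. Segments with a common genotype and number were treated as 1 animal. Animals are the replicates, and no sequencing batch is named. Recovery on simulated counts over the 12 libraries was 50%, 80%, 96%, and 98% for 2-, 3-, 4-, and 8-fold changes (50 changed genes per fold among 21216). The changed genes were drawn from well-counted genes only, so these rates do not cover *Col5a3* or *Col11a1*. Libraries were simulated as independent, with no effect of the animal. Within a segment, 2- and 3-fold changes were recovered at 14% and 50% (ascending/arch) and 12% and 48% (descending).

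The members, lists, tests, and the rule for named genes (all members, the rest of the family, the floxed genes, per partner role the 2 smallest p, and the 5 most similar genes) were chosen with earlier results of these data known. *P4ha1*, *Crtap*, *Col14a1*, *Col15a1*, *Serpinh1*, *Dcn*, *Lum*, and the neighboring genes were named after their values were seen. Alternatives were DESeq2 1.42.0, limma-voom 3.58.1, other scaling and filters, blocks, sums per animal, each segment alone, each animal left out, and, chosen after seeing the data, counts divided by 2, exon length for the ratios, and an animal block for the difference between segments.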

Additional observations from a re-analysis of the deposited data

How the results depend on the processing

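The 5 members called over 12 libraries kept direction and call under all 16 alternatives (*Col3a1* −2.36 to −2.20, *Col5a2* −1.91 to −1.75, *Col1a2* −1.78 to −1.59, *Col1a1* −1.73 to −1.27, *Col5a1* −1.07 to −0.83). In the descending segment, 3 to 5 members were called with 1 animal left out: 3, also at more than 2-fold, without GFPiSMC replicate 1 or 2, with fewer samples. Calls over all genes also dropped there, to 109 of 23476 and 131 of 23478 lower, against 269 of 22320 with all animals. At more than 2-fold, these numbers were 104 and 120 against 222. *Col5a1* in the ascending/arch segment passed with DESeq2 (adjusted p = 0.00179), RLE factors (0.04788), or a mean of at least 50 counts (0.01718), and in the descending segment it did not when fitted alone (0.06726). The log2 difference of *Col5a1* to *Col5a2* was 1.15 in the ascending/arch and 0.69 in the descending segment alone. *Col5a3* turned to 0.0115 with library size only, and ranged from −0.49 to 0.24 with 1 animal left out (above 0 without GFPiSMC replicate 1 or 2 or Tgfbr1/2iSMCKO replicate 1). *Col11a1* ranged from −0.0542, without Tgfbr1/2iSMCKO replicate 2, to 0.51. The cause was not tested.

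With the replicate number as a block, 5 members were called over 12 libraries, 4 in the ascending/arch, and 5 in the descending segment, as without it. Of all 22320 genes, 656, 195, and 238 were lower in these fits, against 721, 225, and 269 without the block. In their deviations from group means, same-numbered libraries of different genotypes correlated from −0.527 to 0.329 (over 0.1 in 2 of 12 pairs). Libraries taken as segments of 1 animal correlated from −0.242 to 0.661 (3 of 6). These correlations cannot settle either pairing.

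Counts over all genes moved more. Against 721 lower and 402 higher, DESeq2 gave 1139 and 895, total counts 505 and 699, sums per animal 304 and 147, and leaving out an animal 410 to 687 lower. Within segments, DESeq2 gave 532 and 377 against 225 and 90 (ascending/arch), and 553 and 354 against 269 and 116 (descending), where the segment alone gave 116 and 34. Counts of 5 to 34 limit *Col5a3*.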
